A study of Mus musculus with 6 samples.

Results

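Trpm1 and 5 related genes of the transient receptor potential (TRP) channel superfamily were followed in mouse melanoma spheroids kept with or without BMP2. The members are Trpm1, Trpm2, Trpm4 and Trpm7 of the melastatin subfamily and Mcoln1 and Mcoln3 of the mucolipin subfamily, 6 of the 28 TRP channel genes and of 34981 genes in the deposited table. They were chosen by gene name with the BMP2 minus PBS differences of these same libraries already known, so their BMP2 against PBS values are a description, and tests of that contrast on them support nothing. B16F10 is an established melanoma line of C57BL/6 mice. Per the labels, 500 cells were plated in 50 µl of Matrigel, a basement membrane extract, at 7 mg/ml, and were then kept for 10 days with BMP2 at 100 ng/ml or with PBS alone. Each of 3 batches holds 1 BMP2 and 1 PBS culture, which gives 3 libraries per group, and all cultures come from the same line. The PBS samples are titled as untreated. Of the 6 members, 5 passed the filter on low counts and Mcoln3 did not.

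TRP channels are cation channels of the plasma membrane and of intracellular organelles, assembled from subunits that each span the membrane repeatedly. TRPM1, or melastatin, is a channel of melanocytes and of retinal bipolar cells and owes its name to its loss in metastatic melanoma. In melanocytes its gene is transcribed under the lineage factor MITF, and one of its introns carries the microRNA miR-211. TRPM7 joins a channel for magnesium, calcium and zinc to a protein kinase, TRPM4 passes monovalent cations when calcium rises in the cell, and TRPM2 is gated by ADP-ribose during oxidative stress. The mucolipins sit in endosomes and lysosomes: TRPML1, the product of Mcoln1, releases calcium from lysosomes and is lost in mucolipidosis type IV, and TRPML3, the product of Mcoln3, is known from varitint-waddler mice, which have a diluted coat and hearing loss.

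The microRNA genes carried by the melastatin genes are shown because they tie Trpm1 to a relative. The Mir211 hairpin lies at chr7:64205806-64205911 on GRCm38, in an intron of 12 of the 23 annotated Trpm1 transcripts and in an exon of 0. The Mir204 hairpin lies at chr19:22750605-22750672, in an intron of 18 of the 24 transcripts of Trpm3. The mature 5p forms follow, 5′ to 3′ from RefSeq on GRCm38.p6, with the seed, bases 2 to 8, in capitals.
mmu-miR-211-5p: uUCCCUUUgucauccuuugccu
mmu-miR-204-5p: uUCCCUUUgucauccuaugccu
Both carry the seed UCCCUUU. The microRNAs themselves were not measured here, only the transcripts of their host genes.

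Upstream windows are shown for the members because the promoter of a melanocyte gene is where an E-box, the CACGTG or CATGTG motif that MITF and its relatives TFEB and TFE3 can bind, would be read. RefSeq windows were matched for 5 of the 6 members, with a pair of separate starts for Trpm1, and each was cut to the 250 bases upstream of the start. The 4 windows that follow are 5′ to 3′ on the strand of the gene (GRCm38.p6), with CACGTG and CATGTG in capitals. They lie at chr7:64153585-64153834 (plus strand) for the first Trpm1 start, chr7:64185209-64185458 (plus strand) for the second, chr8:3500269-3500518 (plus strand) for Mcoln1 and chr2:126876262-126876511 (minus strand) for Trpm7.
Trpm1 first start: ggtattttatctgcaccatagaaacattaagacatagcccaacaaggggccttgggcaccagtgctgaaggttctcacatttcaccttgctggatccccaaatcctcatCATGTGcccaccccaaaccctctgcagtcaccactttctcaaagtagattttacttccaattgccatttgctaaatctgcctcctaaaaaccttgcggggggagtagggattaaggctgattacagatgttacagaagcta
Trpm1 second start: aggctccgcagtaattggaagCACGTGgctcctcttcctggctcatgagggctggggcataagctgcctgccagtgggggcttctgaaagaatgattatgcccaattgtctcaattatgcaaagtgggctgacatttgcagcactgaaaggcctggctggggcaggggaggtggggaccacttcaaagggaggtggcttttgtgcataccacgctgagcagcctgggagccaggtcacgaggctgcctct
Mcoln1: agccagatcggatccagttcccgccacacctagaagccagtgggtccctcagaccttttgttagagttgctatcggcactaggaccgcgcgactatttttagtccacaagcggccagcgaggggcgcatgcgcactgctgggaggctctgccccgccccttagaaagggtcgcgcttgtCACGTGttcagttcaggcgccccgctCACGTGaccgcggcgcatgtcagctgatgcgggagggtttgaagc
Trpm7: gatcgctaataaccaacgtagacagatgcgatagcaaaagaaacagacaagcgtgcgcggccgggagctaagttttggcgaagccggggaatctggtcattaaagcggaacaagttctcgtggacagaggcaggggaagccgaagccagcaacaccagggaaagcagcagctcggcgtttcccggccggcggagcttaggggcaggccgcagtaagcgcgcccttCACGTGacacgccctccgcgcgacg
The first Trpm1 window holds CATGTG beginning 141 bases before the start, and the second holds CACGTG 229 bases before it. Mcoln1 has 2 copies of CACGTG, at 71 and 45 bases before its RefSeq start, and Trpm7 has 1 copy at 25 bases. The Trpm2 window has CATGTG on the other strand at 80 bases, and the Mcoln3 window holds neither motif. RefSeq starts can differ from the gene bounds given below. The Mcoln1 window ends at 3500518, past the gene start at 3500457, so the copy at 45 bases lies inside the annotated gene. The windows of Trpm2, Mcoln3 and the second Trpm1 start lie wholly inside their annotated genes. Of all 32851 windows of this length, 1978 (6.02%) hold CACGTG and 0.429% hold 2 or more copies. CATGTG on either strand is held by 4025 (12.3%), so a match is not particular to the members. CACGTG reads the same on both strands, and the searched motifs do not overlap each other. Such a match describes the letters in the window and shows no binding.

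Trpm1 (ENSMUSG00000030523, GRCm38 chromosome 7, 64153835 to 64269775) had the highest level per kilobase of the tested TRP genes and was the member with the most even difference between the groups. Its level was 618, 1007 and 1412 CPM (estimated counts per 1000000, scaled by the TMM method) in the BMP2 libraries of batches 1, 2 and 3, and 315, 537 and 628 CPM in the PBS libraries. Every BMP2 library was above the PBS library of its own batch, while the groups as a whole overlapped slightly, since BMP2 1 lay just below PBS 3. The means were 1012 ± 397 CPM with BMP2 and 493 ± 161 CPM with PBS (SD, n = 3). The fitted log2 fold change was 1.04 (SE 0.36), and the log2 differences within batches 1, 2 and 3 were 0.97, 0.91 and 1.17. With batch as a block the log2 fold change was 1.02 and its SE fell from 0.36 to 0.13. These levels rest on 9670 to 56552 estimated counts per library, so counting error is small beside the spread between cultures. The 7 melanoma line markers, Mitf, Tyr, Dct, Pmel, Mlana, Sox10 and Tyrp1, summed to 28870 to 39071 CPM with BMP2 and 23669 to 26310 CPM with PBS. All 7 were higher in all 3 batches, as were 22.8% of all tested genes. The part of these markers in the Trpm1 difference was not tested. In bulk RNA, fewer cells with a transcript and less of it per cell cannot be told apart.

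The other tested members showed no such even difference. Trpm7 (ENSMUSG00000027365, chromosome 2, 126791565 to 126876230), the channel-kinase, was at 60.3, 50.5 and 78.5 CPM with BMP2 and 44.6, 55.0 and 62.8 CPM with PBS. It was higher with BMP2 in batches 1 and 3 and lower in batch 2, and the log2 fold change was 0.22 (SE 0.23). Mcoln1 (ENSMUSG00000004567, chromosome 8, 3500457 to 3515232), the lysosomal calcium channel gene, was at 27.7, 38.1 and 56.3 CPM with BMP2 and 33.3, 28.7 and 43.1 CPM with PBS. It was higher in batches 2 and 3 and lower in batch 1, and its log2 fold change was 0.22 (SE 0.29), or -0.092 when BMP2 replicate 3 was left out. Trpm4 (ENSMUSG00000038260, chromosome 7, 45302632 to 45333780), the calcium-activated channel gene, was at 9.14, 7.15 and 10.8 CPM with BMP2 and 11.6, 7.22 and 9.01 CPM with PBS. Its values interleaved fully and the log2 fold change was -0.036 (SE 0.28), with both signs among the batches.

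Trpm2 (ENSMUSG00000009292, chromosome 10, 77907722 to 77970563), the ADP-ribose-gated channel gene, was low in every library and highest in 1. It was at 0.787, 0.642 and 0.399 CPM with BMP2, and at 3.29, 0.422 and 0.299 CPM with PBS, so PBS 1 alone lay far above the rest. The 3.29 CPM correspond to 101 estimated counts, against 10 to 23 in the other libraries. Over all libraries the log2 fold change was -1.13 (SE 0.90), but it was 0.74 when PBS 1 was left out and -0.43 with batch as a block, and within batches 1, 2 and 3 the log2 differences were -1.98, 0.55 and 0.36. PBS 1 also had the lowest TMM factor of the 6 libraries, 0.872 against 0.975 to 1.09, and its part in the Trpm2 value beyond these figures was not tested.

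Mcoln3 (ENSMUSG00000036853, chromosome 3, 146117450 to 146141806), the endosomal mucolipin gene, was not detectable at this depth with BMP2. It had 0 estimated counts in the 3 BMP2 libraries and in PBS 1, and 1 count each in PBS 2 and PBS 3. A count of 0 allows up to 3 counts, or 0.0749 to 0.103 CPM depending on the library, and this limit covers counting error only. With both groups at or under that limit no fold change is given.

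**Figure D1:**
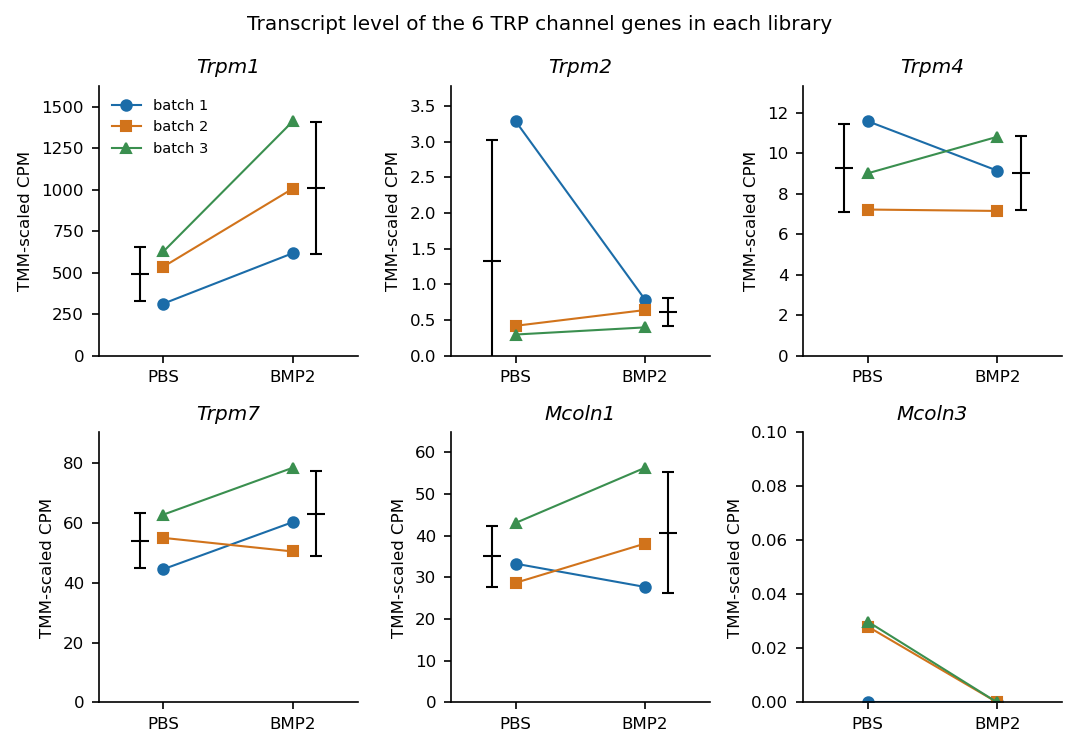
Level of each of the 6 members (vertical axes, TMM-scaled CPM, each from 0) in the PBS and BMP2 libraries; lines join libraries of 1 batch, and black bars are the mean ± SD over 3 libraries (none for Mcoln3; the lower bar of Trpm2 is cut at 0). Trpm1 is higher with BMP2 along all 3 lines, going from 315, 537 and 628 to 618, 1007 and 1412 CPM, while the lines of Trpm4, Trpm7 and Mcoln1 differ in slope and PBS 1 stands alone for Trpm2 at 3.29 CPM.

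Over all 12929 tested genes, 0.371% were called higher with BMP2 and 0.364% lower with batch as a block (edgeR quasi-likelihood test, Benjamini-Hochberg adjusted p under 0.05), that is 0.735% in either direction. Without the block 0.00773% were called higher and 0.0387% lower, 0.0464% in either direction. With the block 1 of the 5 tested members, Trpm1, was called, and without it 0 were. Because the same contrast was in view when the members were listed, nothing is read from that count. Without the block, 1 member had an unadjusted p under 0.05, as did 5.38% of all tested genes. DESeq2 and limma-trend called 0 members, beside 130 and 6 of all 12929 tested genes. In the blocked fit the log2 fold change of Trpm1 was 1.03, 1.08 and 0.94 without batches 1, 2 and 3. The edgeR adjusted p there was 0.00625, 0.166 and 0.0863, so Trpm1 was called only without batch 1. The BMP2 library exceeded its PBS partner in every batch for 22.8% of all tested genes and fell short of it in every batch for 21.1%. Of the members, Trpm1 was higher in all 3 and none was lower in all 3. The groups did not overlap with BMP2 higher for 6.42% of tested genes and with BMP2 lower for 5.72%, and this held for 0 of the 5 members.

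Trpm1 also differed between batches, a contrast that the choice of members did not use. Averaged over both groups on the log2 CPM scale, Trpm1 was 1.09 higher in batch 3 than in batch 1 and 0.74 higher in batch 2 than in batch 1. The batch term for Trpm1 had an adjusted p of 0.0324 (edgeR quasi-likelihood F test over 12929 genes), against 8.12% of tested genes called. The distance between batches 1 and 3 was thus about as large on the log2 scale as the difference between BMP2 and PBS. The same term was not called for Mcoln1 (adjusted p 0.126), Trpm2 (0.146), Trpm7 (0.221) or Trpm4 (0.304). Their widest batch differences were 0.70 for Mcoln1, 2.05 for Trpm2, 0.44 for Trpm7 and 0.51 for Trpm4 on the log2 CPM scale. Whether the BMP2 difference itself varied between batches could not be tested, since each batch holds 1 library per group.

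Levels of the members were compared per kilobase of transcript, using the mean length of the annotated coding transcripts. On this scale Trpm1 led at 452 ± 177 CPM per kb with BMP2 and 220 ± 72.0 with PBS (SD, n = 3). Mcoln1 followed at 54.1 ± 19.3 and 46.6 ± 9.76 CPM per kb, then Trpm7 at 12.7 ± 2.86 and 10.9 ± 1.84. Trpm4 was at 3.22 ± 0.654 and 3.31 ± 0.782 CPM per kb, Trpm2 at 0.217 ± 0.0697 and 0.475 ± 0.601, and Mcoln3 was last. No neighbours in this order overlapped over the 6 libraries. With the union of all exons as the length, Trpm7 and Mcoln1 changed places and their ranges overlapped, at means of 5.18 and 5.01 CPM per kb over all libraries, while the other places were the same. Annotated coding transcripts of Trpm1 run from 123 to 5711 nt, and short melastatin forms are known in melanocytes. Its level per length thus depends on which forms were present. Those of Mcoln1 run from 363 to 2065 nt, with a mean of 751.8 nt. Over all libraries the Mcoln1 mean was 4.26 times that of Trpm7 by mean length and 2.22 times by longest transcript. The deposited values are per gene and do not separate the forms of a gene.

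Little of the annotated sequence of the members is shared with other genes. The share of their 31-base words found in another gene was 0.77% for Trpm1, 1.71% for Trpm2, 0.666% for Trpm4, 0.525% for Trpm7 and 3.19% for Mcoln1, and was 0% for Mcoln3. Processed pseudogenes lie inside Trpm4 (Rpl14-ps1) and Trpm7 (Gm14212) on the opposite strand, and neither overlaps an exon of its host. Rpl14-ps1 was itself at 156 to 349 CPM, and both it and Trpm4 were highest in PBS 1. Their relation was not tested. The annotated locus Gm44722 lies on the opposite strand and overlaps an exon of Trpm1. As the strand setting of the counting is not known, reads from such a pair cannot be told apart. For Trpm2, the member with few counts, the small nucleolar RNA genes Gm22871 and Gm22394 lie on the same strand and overlap its exons, and their part in its counts was not tested.

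Among the 22 other TRP genes, 8 were tested, 7 had a few counts in some library and 7 had 0 counts in all 6. Among those at 0 were Trpm6, the closest relative of Trpm7, Trpa1, the canonical channels Trpc2, Trpc4 and Trpc5, and the epithelial calcium channel Trpv5. The 7 others that were not tested (Trpm5, Trpm8, Trpc6, Trpc7, Trpv1, Trpv6 and Pkd2l1) reached at most 8 counts in a library.

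Of the 8 other tested TRP genes, edgeR called 0 for BMP2 against PBS in either fit. It called 0.735% of all tested genes with the block and 0.0464% without it. DESeq2 and limma-trend called 0 of the 8, beside 130 and 6 of all 12929 tested genes. At an unadjusted p under 0.05, edgeR gave 0 of the 8 without the block and 2 with it, beside 5.38% and 17% of all tested genes. Their median log2 fold change was 0.30, beside 0.22 for the 5 tested members and 0.01 for all tested genes. Trpv2, a channel of endosomes and the plasma membrane, was at 27.3, 57.8 and 77.7 CPM with BMP2 and 19.7, 47.5 and 59.9 CPM with PBS. It was higher with BMP2 in each batch by little (0.47, 0.28 and 0.37 on the log2 scale) and had an adjusted p of 0.232 with the block. Trpv2 also differed between batches (edgeR adjusted p 0.0217), by 1.55 on the log2 scale from batch 1 to batch 3. Trpv4, an osmosensitive channel, was at 5.61, 7.71 and 2.87 CPM with BMP2 and 3.22, 3.77 and 2.22 CPM with PBS, with an adjusted p of 0.244 with the block. Trpm3, which carries Mir204, was at 2.50, 2.45 and 2.15 CPM with BMP2 and 0.976, 2.14 and 2.48 CPM with PBS. Its log2 fold change was 0.34 (SE 0.44), and per kilobase its mean level was 0.443 CPM against 336 for Trpm1, the host of Mir211. Pkd2, the polycystin channel gene, was at 7.97 CPM in PBS 1 and at 19.9 to 27.5 CPM in the other libraries. The log2 fold changes of Mcoln2, Trpc1, Trpv3 and Pkd2l2 lay between -0.34 and 0.33 and each had both signs among its batches.

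**Figure D2:**
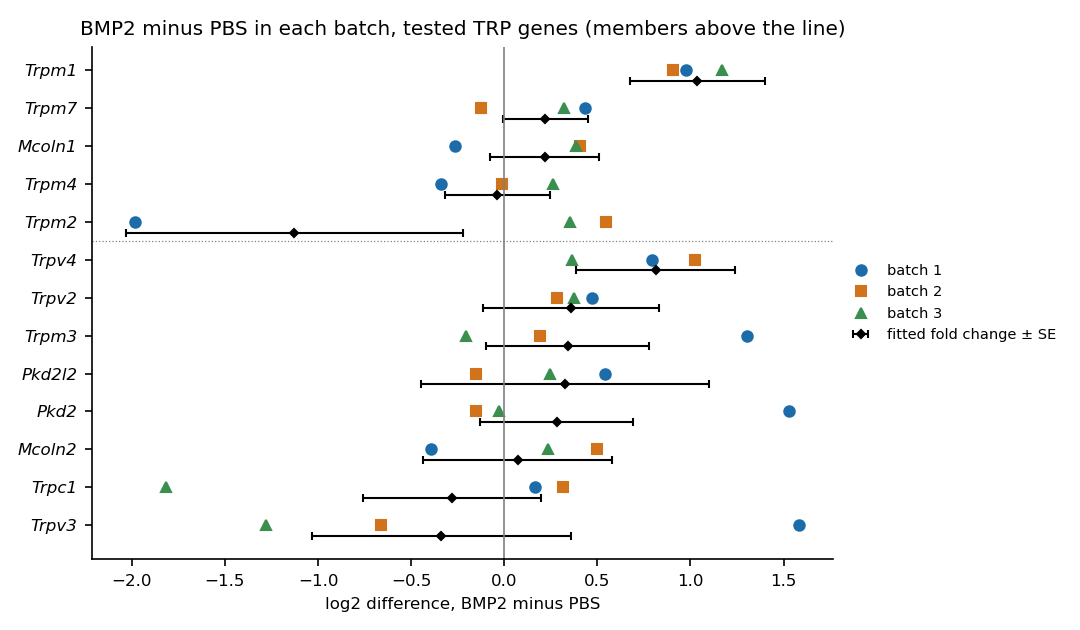
Log2 difference BMP2 minus PBS (horizontal axis) within each batch for the 5 tested members and the 8 other tested TRP genes (rows); black diamonds are the fitted log2 fold change ± SE without the block. The 3 batches of Trpm1 sit together at 0.91 to 1.17, Trpv2 and Trpv4 are also above 0 in all 3, and the batches of Trpm2 run from -1.98 to 0.55.

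**Figure D3:**
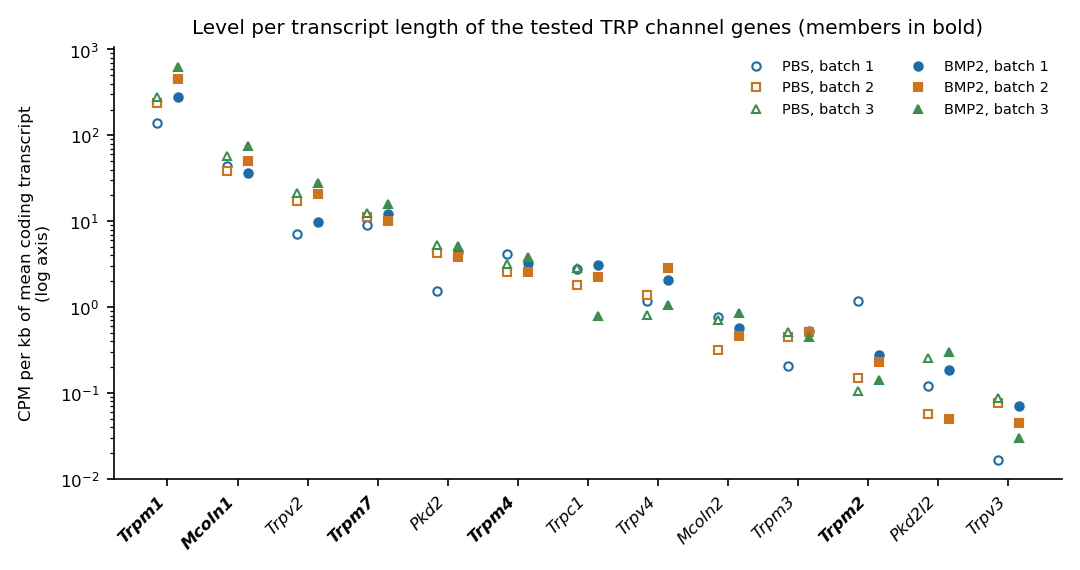
Level per kilobase of mean coding transcript length (vertical log axis, CPM per kb) of the 13 tested TRP genes in each library, open for PBS and filled for BMP2, members in bold. Trpm1 lies at 141 to 631 CPM per kb, above every library of the next gene, Mcoln1, at 36.8 to 74.9.

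The 5 genes with levels most like those of Trpm1 were found by Pearson correlation of log2 CPM over the 6 libraries, among 11665 named tested genes. They were Fat2, an atypical cadherin gene (r = 0.999), Sgsm2, which encodes a GTPase-activating protein (r = 0.999), Xylt1, a xylosyltransferase gene (r = 0.992), Ackr3, an atypical chemokine receptor gene (r = 0.991), and Pccb, a subunit of propionyl-CoA carboxylase (r = 0.990). The points share the treatment and the batches, and 4.18% of the genes compared had r above 0.9. Like Trpm1, these genes were lowest in PBS 1 and highest in BMP2 3. Their spans differ, with log2 fold changes of 0.58 for Fat2, 0.57 for Sgsm2, 1.21 for Xylt1, 2.07 for Ackr3 and 0.47 for Pccb, against 1.04 for Trpm1. Ackr3 was scarce, at 0.0325 to 1.47 CPM, and its value in PBS 1 lay under the counting limit of 0.0975 CPM for that library. Among the other members the correlation with Trpm1 was 0.73 for Trpm7, 0.68 for Mcoln1, -0.19 for Trpm4 and -0.66 for Trpm2.

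**Figure D4:**
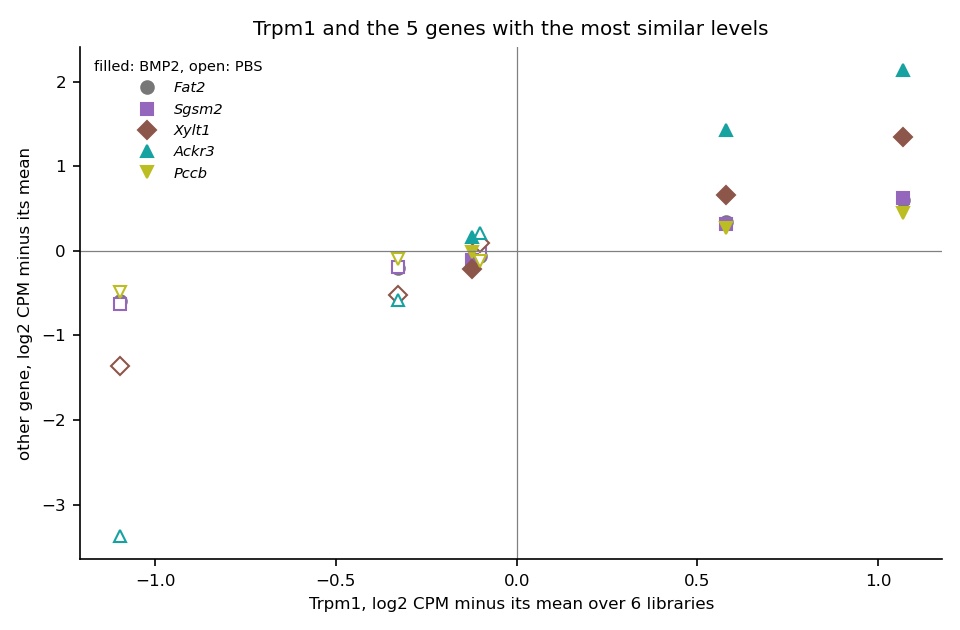
Log2 CPM minus the mean of the gene for the 5 genes most like Trpm1 (vertical axis) against the same for Trpm1 (horizontal axis) in 6 libraries, filled for BMP2 and open for PBS. Each gene climbs with Trpm1 from PBS 1 at the lower left to BMP2 3 at the upper right. Ackr3 covers the widest range, but its PBS 1 point, at 0.0325 CPM, lies under the counting limit of 0.0975 CPM. The points carry no prior count, unlike the correlation.

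The members were set beside lists of related genes, drawn up around Trpm1 or around other members. Earlier results of these data were known when the lists were written, so nothing is read from their BMP2 against PBS calls. Of 117 tested genes in 10 lists of channel partners, ion transport and lysosomal function, 0 were called without the block by edgeR, DESeq2 or limma-trend. Of all 12929 tested genes, these fits called 6, 130 and 6. With the block 2 of the 117 were called higher by edgeR, beside 0.371% of all tested genes. At an unadjusted p under 0.05, edgeR gave 8 without the block and 27 with it, beside 5.38% and 17% of all tested genes. Both called genes are in the list headed melanosomal ion and metal transport, although Gpr143 encodes a receptor. The 8 tested genes of that list had a median log2 fold change of 0.56. The exchanger gene Slc24a4 rose by 1.30 and the melanosomal receptor gene Gpr143 by 1.75 with the block (edgeR adjusted p 0.036 and 0.019). In that list 5 of 8 genes also differed between batches, as Trpm1 did, beside 8.12% of all tested genes. Mitf was at 310, 265 and 319 CPM with BMP2 and 189, 207 and 202 CPM with PBS. Its groups did not overlap, as for 6.42% of tested genes with BMP2 higher, and its edgeR adjusted p was 0.142 with the block. Its relatives Tfe3 and Tfeb had log2 fold changes of -0.46 and 0.036. Summed markers of fibroblasts, endothelium, leukocytes and keratinocytes stayed at or below 15.9 CPM per list in every library. Among their defining genes Cdh5, Tek, Adgre1, Krt10 and Trp63 were at 0 counts in all 6. Others were present in every library, with 147 to 516 counts for the endothelial marker Vwf, 80 to 151 for the macrophage marker Cd68, 57 to 225 for the fibroblast marker Pdgfra and 10 to 82 for the myeloid marker Lyz2. Lyz2 was higher with BMP2 in all 3 batches, at a log2 fold change of 1.65, while Cd68 and Pdgfra were lower in all 3, at -0.80 and -0.85. The adjusted p of these 3 with the block was 0.131, 0.235 and 0.185 (edgeR), and their part in the results was not tested.

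Several partners of TRPM1 in its retinal signalling pathway were scarce beside the Trpm1 transcript, and 4 of the 11 listed genes were tested. Lrit3 and Gng13 had 0 counts in all libraries, and Grm6, the glutamate receptor of that pathway, had 1 count in BMP2 1 and 0 elsewhere, all within the limit of 0.0749 to 0.103 CPM. These 3 genes and Abcc8 were named after their values were seen. Gnao1, the G protein subunit of the pathway, was present at 92.2 to 150 CPM, with a log2 fold change of -0.065. The regulator gene Rgs11 had a log2 fold change of -0.28, or -0.99 with the block, with within-batch differences of 0.059, -1.17 and -1.98. It also differed between batches (edgeR adjusted p 0.0323). Its partner Gnb5 was at 0.13. For Trpm4, the sulfonylurea receptor partner gene Abcc8 had 1 count in all. The calmodulin gene Calm3 was at -0.36 and the kinase gene Prkca at -0.17 on the log2 scale.

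Genes around the other members did not pass in either fit. For Trpm7, the 20 tested genes of magnesium and divalent cation transport had a median log2 fold change of 0.01, and the lowest was that of the magnesium transporter gene Slc41a2 at -1.22 (edgeR adjusted p 0.168 with the block). The zinc importer genes Slc39a10 and Slc39a14 were at -0.61 and 0.43. For Mcoln1, the 22 lysosomal genes of the CLEAR network, which TFEB drives, had a median of 0.0015, with Ctsa at -0.48, Sgsh at 0.36 and Psap at -0.51. The 14 endolysosomal channels and exchangers had 0.13, and the 10 genes of PI(3,5)P2, the lipid that opens TRPML1, had 0.15, with Inpp5e at 0.42, Fig4 at 0.27 and Mtm1 at 0.47. The chloride exchanger gene Clcn7 was at 0.58 and the channel gene Tmem63a at -0.73 (edgeR adjusted p 0.187 and 0.138 with the block), and the ATP-gated channel gene P2rx4 at 0.33. For Trpm2, the 13 genes of ADP-ribose and NAD turnover had a median of 0.01, with Nmnat2, an NAD synthesis gene, at 1.02 (edgeR adjusted p 0.11 with the block), Nampt at -0.52 and Macrod1 at -0.61. Genes of calcium entry and stores had a median of -0.04 over 19 tested, with the inositol trisphosphate receptor gene Itpr3 at -0.94 (edgeR adjusted p 0.15 with the block), Stim2 at 0.51 and Atp2b4 at -0.49.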

How the data were processed

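Messenger RNA was sequenced from 6 libraries of 27821900 to 36856500 estimated counts. The authors deposited these estimated counts per Ensembl gene, for which the submitters' processing notes name kallisto 0.44.0 and GRCm38.p6. The sources used here do not name the annotation release, strand setting or gene-level summary, and kallisto divides shared reads by likelihood. The deposited control columns were taken as the untreated samples.

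GENCODE M21 gave symbols and positions (34679 genes matched). Rounded counts were filtered with the edgeR default, TMM-scaled and tested with edgeR 4.0.16 (R 4.3.3) without a block, at a Benjamini-Hochberg adjusted p of 0.05. SEs were worked back from the F statistic. Replicate numbers mark shared batches per the labels, and deviations correlated at 0.51, 0.25 and 0.52 within batches, so a blocked fit (2 residual degrees of freedom against 4) was added, in which the batch term was tested jointly. Nothing says more of how separate the cultures were, so p-values measure the spread between these samples.

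The members and lists were chosen with earlier results of these data known. Named are the members, other TRP genes, genes called in a list (otherwise up to 3 with the smallest blocked p) and the 5 most like Trpm1 (log2 CPM, prior count 2, predicted genes and pseudogenes left out). Alternatives were no filter, a mean of 100 counts, DESeq2 1.42.0, quantile normalization with limma-trend 3.58.1, other lengths, and leaving out libraries or batches. The fits were also run on simulated counts with a fixed dispersion and batch effects in 200 genes. There 84 of 100 2-fold changes were called without the block and 93 with it, with 0 and 7 false calls. That run checks the code and does not measure power in these data. Some genes under these rules are not reported here.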

Additional observations from a re-analysis of the deposited data

How the results depend on the processing

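The log2 fold change of Trpm1 kept its sign in all 15 alternatives run, at 0.72 to 1.29 with 1 library or batch left out and 1.20 under quantile normalization. That of Trpm7 did in 15 of 15, Mcoln1 in 14 of 15, and Trpm4 in 12 of 15. Trpm2 kept its sign in 12 of 14, at -1.59 to 0.74 with 1 library or batch left out, and could not be fitted under the filter at a mean of 100 counts. Genes called higher and lower with BMP2 numbered 1 and 5 without the block, 48 and 47 with the replicate block, 19 and 16 with no filter, 0 and 4 with the stricter filter, and 62 and 68 with the Wald test of DESeq2. They ranged from 0 to 223 and from 2 to 308 with a library or batch left out. The highest counts, 223 and 308, came from the blocked fit without batch 1. Genes of the melanosomal ion and metal transport list called higher were 0 without the block and 2 with it. The block changed the count of calls in no other list but moved Trpm1 past the threshold. With a batch left out of the blocked fit, Trpm1 stayed past the threshold only without batch 1. Genes that differ between batches were 1050, or 2571 with no filter and 2714 with the likelihood ratio test of DESeq2, and the batch calls of the 5 tested members were the same under the 3 alternatives. With the union of exons as length, 2 places in the order of levels changed. Depth limits Mcoln3, which has 2 counts in all.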
